A study of Mus musculus with 25 samples.

Results

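Genes of the contact between the oocyte and its granulosa cells were followed, 5 in all: Gja1, Gja4 and Gjc1, which encode connexins 43, 37 and 45, Kitl, which encodes Kit ligand, and Kit, its receptor. They were chosen by gene symbol among the 17914 genes of a mouse bead array. Probes were found for 4 of the 5 genes, 5 probes in all, with 1 probe each for Gja1, Gja4 and Gjc1 and 2 for Kitl. The probe of Gjc1 is listed under the older symbol Gja7. Kit was not analysed here. All 4 genes passed the detection filter and were tested among 10688 genes.

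Total RNA came from multilayered secondary follicles, 150 to 180 µm across, of CD-1 mice aged 16 days. The follicles were freed mechanically, embedded one by one in 3% alginate, and kept in medium that held FSH (10 mIU/ml), insulin, transferrin, selenium, fetuin and albumin. Arrays were made before culture (day 0, n = 5) and after 2, 4, 5, 6 and 8 days of culture (n = 3 each), and 5 more arrays were labelled brain reference. Each follicle RNA is a pool of 20 to 40 whole follicles, so oocyte, granulosa and theca RNA are measured together, and no group was cultured without FSH or outside alginate. The protocol speaks of 3 independent experiments. The labels do not say whether the 5 day 0 arrays came from separate pools; if they did not, p-values measure only the spread between these arrays.

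Connexins assemble into gap junctions, channels that let small molecules pass between neighbouring cells. In the mouse ovary connexin 43 is the main connexin between granulosa cells, and connexin 37 is the channel between the oocyte and the granulosa cells around it. These channels carry nutrients into the oocyte, and also cyclic GMP, which holds it in meiotic arrest. Kit ligand is made by granulosa cells and acts on the Kit receptor of the oocyte and of theca cells, where it supports oocyte growth through the PI3 kinase pathway.

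On the follicle arrays 44.2% to 51.3% of all probes gave a detected signal. Day 6 repeat 1 stood apart, with the lowest array weight of the 20 arrays (0.127), and results that turn on it are given with and without it. The arrays labelled brain reference went against their label: 5 of 8 brain markers (Gfap, Snap25, Syt1, Mobp and Gria2) were detected on none of the 5, whereas 7 heart muscle markers, among them Nppa (15.12 on the log2 scale), Myl2 (15.09) and Myh6 (14.86), were detected on all 5. On the follicle arrays, 20 of 24 oocyte markers and 15 of 17 granulosa cell markers passed the detection filter.

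Across the 6 days Gja4, the oocyte connexin, fell, Gjc1 did not pass the test on any day, and Kitl was highest at day 8. Gja1 was slightly higher on every cultured day than before culture, by 0.24 to 0.33, and of these days only 5 and 8 passed. A moderated F test over the 6 days (limma, threshold of 0.05 on the adjusted p) called 2 of the 4 genes, Gja4 and Kitl, against 50.0% of all genes tested. Levels are log2 normalized signals. They order days within a gene but not one gene against another, because each probe binds with its own strength.

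**Figure D1:**
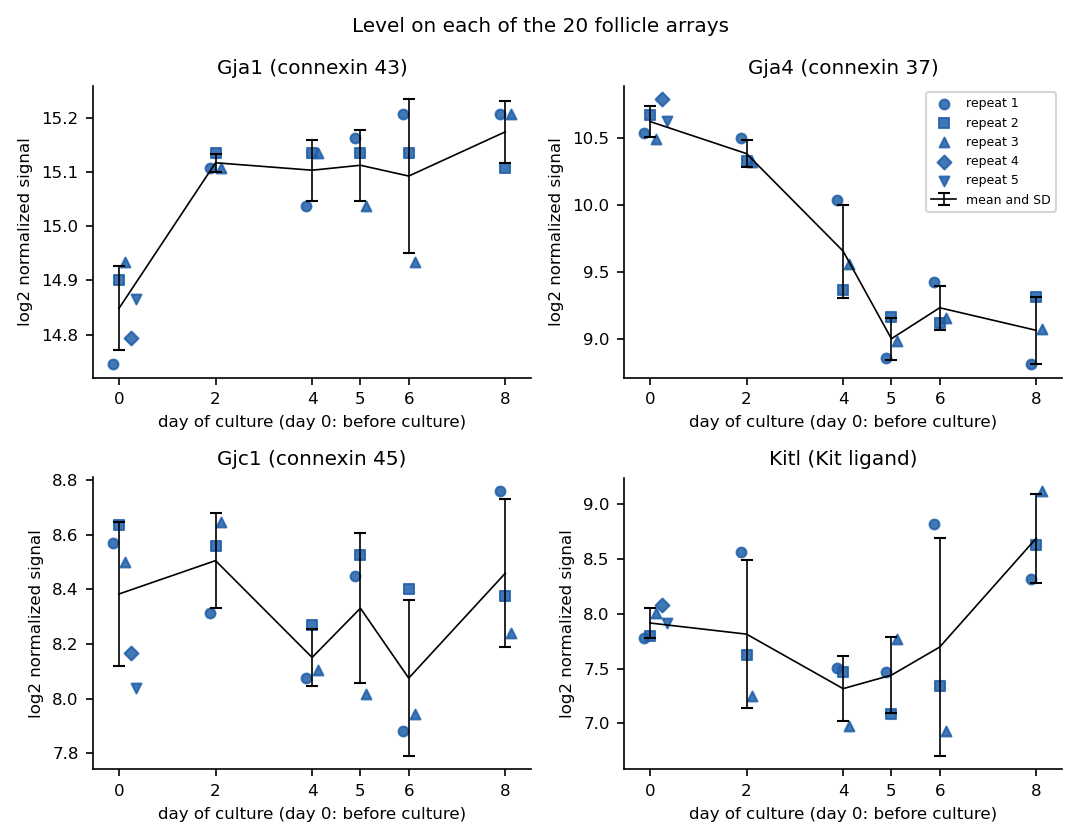
Log2 normalized signal (vertical axes, each with its own range) of Gja1, Gja4, Gjc1 and Kitl against the day of culture on the 20 follicle arrays. Points are arrays with a marker for each repeat number, and lines with bars are the mean and SD per day. Gja4 at days 4 to 8 lies below every array of days 0 and 2, and Kitl at day 8 lies above every array of day 0.

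Gja4, which encodes connexin 37 and lies on chromosome 4, was about 3-fold lower at the end of culture. Its level on the day 0 arrays was 10.54, 10.68, 10.50, 10.79 and 10.63, and on the day 2 arrays 10.50, 10.33 and 10.32. It was 10.04, 9.37 and 9.56 at day 4 and 8.86, 9.17 and 8.99 at day 5. The day 6 arrays had 9.43, 9.12 and 9.16 and the day 8 arrays 8.81, 9.31 and 9.07. Days 0 and 2 overlapped, and all 12 arrays of days 4 to 8 lay below all 8 arrays of days 0 and 2. In order of mean level the days ran 0, 2, 4, 6, 8 and 5, and the only neighbours in that order that did not overlap were days 2 and 4.

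The change from day 0 was -0.24 at day 2 (SE 0.15, adjusted p = 0.279), which did not pass. It was -0.97 at day 4 (adjusted p = 4.99e-05), -1.62 at day 5 (a 3.08-fold fall, adjusted p = 7.54e-08), -1.39 at day 6 (adjusted p = 4.04e-07) and -1.56 at day 8 (SE 0.15, a 2.95-fold fall, adjusted p = 8.06e-08). These 4 calls held in all 29 alternative settings. The size depended on the setting, with a day 8 change from -1.68 to -1.12, and -1.12 in the authors' log2 values. The share of all genes called lower than day 0 was 18.4% for day 4, 19.3% for day 5, 21.9% for day 6 and 22.8% for day 8. Within culture Gja4 fell between days 2 and 4 by 0.73 (SE 0.17, adjusted p = 0.00938), where 5.34% of genes were called lower, but without day 4 repeat 2 the change was -0.58 with an adjusted p of 0.0724. The step between days 4 and 5 was -0.65 (adjusted p = 0.0814), and without that same array -0.80 (adjusted p = 0.0357). The steps from day 5 to day 6 (0.23, adjusted p = 0.543) and from day 6 to day 8 (-0.17, adjusted p = 0.742) did not pass. Day 8 was lower than day 2, with a change of -1.32 (SE 0.17, adjusted p = 1.00e-05), with 12.3% of genes called lower.

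The oocyte markers, genes used mainly by the oocyte, fell over the same days. At day 8 against day 0, 19 of the 20 tested were lower and 0 higher, where 22.8% of all genes were lower and 20.6% higher. The median change was -2.02 against -0.003 over all genes. At day 2, 12 were lower and 0 higher, with a median of -0.59, where 25.1% of all genes were called in either direction. Gdf9, a growth factor of the oocyte, was lower at day 8, with a change of -2.37 (SE 0.16), and Zp3 of the egg coat (-2.48, SE 0.22) and the growth factor Bmp15 (-2.50, SE 0.20) were lower as well. Sohlh1, a germ cell transcription factor, was the 1 marker that did not pass (0.04, adjusted p = 0.889), and it was picked out after its value was seen. The summed level of the list on the linear scale was 25420 to 26460 at day 8, against 97500 to 110900 at day 0. In whole follicles, fewer oocytes, a smaller share of oocyte RNA and less RNA per oocyte cannot be told apart.

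Gja4 was therefore also set against the mean of the 20 oocyte markers on the same array. The difference was -0.23, 0.23 and -0.05 at day 8, against -0.43, -0.29, -0.49, -0.29 and -0.38 at day 0. All 3 arrays of day 8 lay above all 5 of day 0. The means were -0.02 ± 0.23 at day 8 (SD, n = 3) and -0.38 ± 0.09 at day 0 (SD, n = 5), a difference of 0.36 (exact permutation test, two-sided, p = 0.0179, the smallest that 56 regroupings allow). This test treats the 5 day 0 arrays as separate and was not run with day 0 counted as 1 sample. Gja4 lay within the spread of the single markers: of the 20, 5 had a day 8 change above that of Gja4 and 15 one below it. In the authors' log2 values the difference was 0.22 (exact permutation test, two-sided, p = 0.0179). Without background correction the difference was 0.24 (p = 0.0536, exact permutation test) and without the detection filter 0.21 (p = 0.125, exact permutation test). Without the filter the marker mean also held Zp2 and Ddx4, the 2 markers that had not passed it, so that value is not against the same 20. Without day 8 repeat 2 it was 0.23 (p = 0.0476, exact permutation test). The day 2 arrays were at 0.16, -0.08 and -0.13 and the day 4 arrays at 0.23, -0.07 and -0.11. Day 6 repeats 2 and 3 were at -0.06 and 0.07. Every array of days 2, 4 and 6 lay above all 5 of day 0, as at day 8. Only the day 5 arrays, at -0.42, -0.32 and -0.27, overlapped day 0. Day 6 repeat 1 had the highest value, 1.04, with an oocyte marker mean of 8.38.

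**Figure D2:**
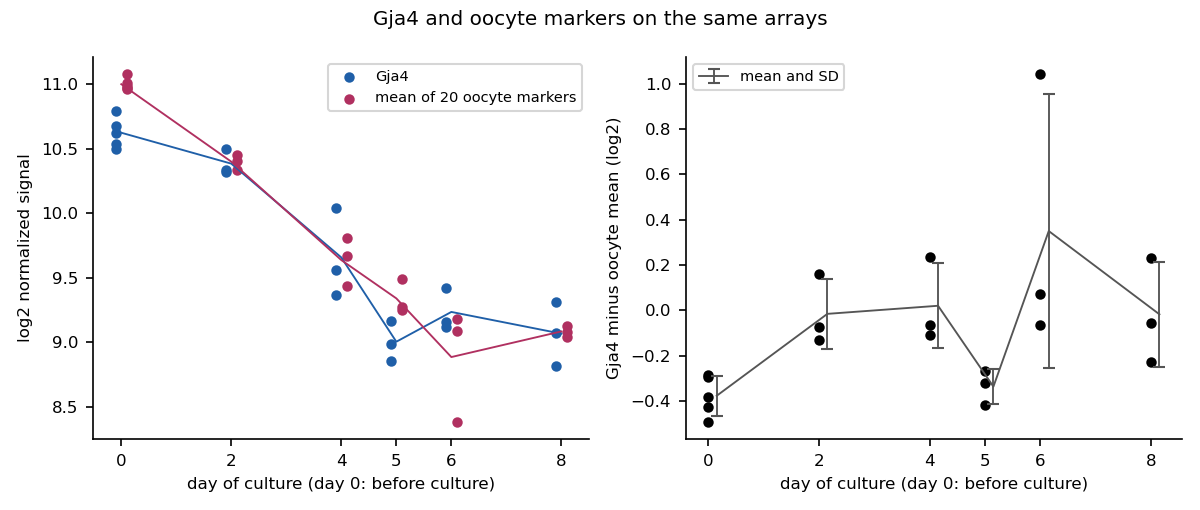
Left, log2 normalized signal of Gja4 and the mean log2 signal of 20 oocyte markers on each of the 20 follicle arrays, against the day of culture. Right, the difference between both on each array, with the mean and SD per day. The day 8 differences, between -0.23 and 0.23, all lie above the day 0 differences, and 1 array of day 6 lies at 1.04.

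Endothelial cells also make Gja4. Of 11 endothelial markers tested, 8 were lower and 1 (Vwf) higher at day 8 than at day 0, with a median change of -0.79. The called share was 81.8%, against 43.4% of all genes (22.8% lower and 20.6% higher). The lower markers included Flt1, a VEGF receptor (-2.005), Eng (-1.77, detected on 2 day 8 arrays) and Emcn (-1.48). The summed level of these markers was 2157 to 2391 at day 8 against 4043 to 4441 at day 0, and all 11 were above background on at least 1 array of both days, while Kdr did not pass the detection filter. The part of these cells in the change of Gja4 was not tested.

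The genes whose levels were most like those of Gja4 over the 20 follicle arrays, by Pearson correlation, were Ezhip (0.975), Tle6 (0.966) and Slc25a15 (0.966). Tle6, a component of the maternal complex under the oocyte membrane, is itself on the oocyte list. The arrays share their days, so these values describe the series and carry no test.

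The promoters of Gja4 and Gja1, the genes whose day 8 level passed the test against day 0 in opposite directions, are shown for the 250 bases before the start site, from RefSeq on GRCm38.p6. Gja4 lies on the minus strand (chr4:127314040-127314289) and Gja1 on the plus strand (chr10:56377050-56377299). Capitals mark matches, on either strand, to the E-box (CANNTG), the GC box (GGGCGG), the AP-1 motif (TGAGTCA) and the TATA box (TATAAA).
Gja4: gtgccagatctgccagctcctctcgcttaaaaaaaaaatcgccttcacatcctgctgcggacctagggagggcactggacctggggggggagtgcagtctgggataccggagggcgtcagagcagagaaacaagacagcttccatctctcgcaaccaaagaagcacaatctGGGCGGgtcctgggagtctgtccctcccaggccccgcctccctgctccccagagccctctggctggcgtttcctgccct
Gja1: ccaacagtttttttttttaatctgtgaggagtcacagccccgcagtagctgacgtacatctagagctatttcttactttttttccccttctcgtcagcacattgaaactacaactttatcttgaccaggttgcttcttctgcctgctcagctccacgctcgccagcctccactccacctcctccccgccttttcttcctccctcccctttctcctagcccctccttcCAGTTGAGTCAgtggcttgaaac
The Gja4 stretch holds 1 GC box, 79 bases before the start, and 0 matches to the other motifs. The Gja1 stretch holds 1 E-box, 23 bases before the start, which overlaps 1 AP-1 motif, and 0 matches to the others. Among 27025 promoters of the same length, 66.0% hold an E-box, 32.9% a GC box, 13.0% a TATA box and 4.4% an AP-1 motif. An E-box is present in 14 of the 15 promoters of the oocyte list that were matched. A match of letters is a description and says nothing of whether a factor binds there.

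Gja1, which encodes connexin 43 and lies on chromosome 10, was read by one of the brightest probes of the array and was 1.25-fold higher at day 8. Its level was 14.75, 14.90, 14.93, 14.79 and 14.87 on the day 0 arrays and 15.11, 15.14 and 15.11 at day 2. It was 15.04, 15.14 and 15.14 at day 4 and 15.16, 15.14 and 15.04 at day 5. The day 6 arrays had 15.21, 15.14 and 14.93 and the day 8 arrays 15.21, 15.11 and 15.21. Of the 15 cultured arrays, 14 lay above all 5 day 0 arrays, and the exception, day 6 repeat 3, equalled the highest of the day 0 arrays. Among themselves the cultured days overlapped throughout.

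At day 8 the mean was 15.17 ± 0.06 (SD, n = 3) against 14.85 ± 0.08 at day 0 (SD, n = 5), a change of 0.33 (SE 0.10, adjusted p = 0.0115), where 20.6% of all genes were called higher. At day 5 the change was 0.26 (adjusted p = 0.0438), with 16.6% of genes called higher. Changes of 0.27 at day 2 (adjusted p = 0.0540), 0.25 at day 4 (adjusted p = 0.0542) and 0.24 at day 6 (adjusted p = 0.0538) did not pass, and neither did the F test over all days (adjusted p = 0.0608). The day 8 call held in 26 of 29 alternatives, and those that lost it included the authors' log2 values (0.28, adjusted p = 0.105) and day 0 counted as 1 sample (adjusted p = 0.258). The day 5 call held in 14 of 29 alternatives. The settings that lost it included the authors' log2 values (0.21, adjusted p = 0.263), day 0 counted as 1 sample (adjusted p = 0.447) and every probe tested (adjusted p = 0.0556). It was also lost without any one of day 0 repeats 1, 2, 4 and 5, day 2 repeats 1 and 2, day 5 repeats 1, 2 and 3, day 6 repeat 2 and day 8 repeat 3, with adjusted p of up to 0.128. Without day 6 repeat 3 the change passed at day 2 (adjusted p = 0.0453), day 4 (0.0459) and day 6 (0.33, adjusted p = 0.0237), and without day 6 repeat 1 it passed at day 2 (adjusted p = 0.0411) and day 4 (0.0435).

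The size of the Gja1 change is limited at the bright end. By rank of raw signal the probe was between 13 and 26 on the day 0 arrays and between 1 and 13 on the cultured arrays. Quantile normalization gives every array the same set of values, so the level of so bright a probe follows from its rank. Raw signals of the probe, not scaled between arrays, ranged from 24750 to 44380, with 29202, 36855 and 41929 at day 8 and 24973 to 44379 at day 0, and overlapped between days. The highest signal of any probe on any array was 48513.

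Granulosa and theca cells both make connexin 43. At day 8 against day 0, 8 of 15 granulosa cell markers were higher and 2 lower, with a median change of 0.89. The called share was 66.7%, against 43.4% of all genes (20.6% higher and 22.8% lower). The summed level was 85500 to 105300 at day 8 against 38610 to 49390 at day 0, a sum in which the brightest genes weigh most. Inhba, an activin subunit, was 5.39 higher and Lhcgr, the LH receptor, 4.33 higher. Amh, made by granulosa cells of growing follicles, was not above background at day 8 and at least 21.0-fold lower. Of 12 theca cell markers, 6 were higher and 1 lower, a called share of 58.3%, and 5 did not pass. The summed levels of the list were 17220 to 23100 at day 8 against 6036 to 6690 at day 0. The brightest at day 8 were Aldh1a1 (12.87) and Cyp17a1 (12.71). How far cell numbers enter the Gja1 change was not tested. The genes most like Gja1 over the 20 arrays were Manea (Pearson 0.912), Eml3 (0.905) and Hgsnat (0.905).

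Gjc1, which encodes connexin 45 and lies on chromosome 11, is known from smooth muscle and conducting tissue. Its level was 8.57, 8.64, 8.50, 8.17 and 8.04 on the day 0 arrays, 8.31, 8.56 and 8.65 at day 2, and 8.08, 8.27 and 8.11 at day 4. It was 8.45, 8.53 and 8.02 at day 5 and 7.88, 8.40 and 7.94 at day 6, and the day 8 arrays had 8.76, 8.38 and 8.24. Every neighbouring pair of days in the order of means overlapped. The change from day 0 was 0.08 at day 8 (95% interval -0.29 to 0.44, adjusted p = 0.765) and -0.31 at day 6 (95% interval -0.67 to 0.06, adjusted p = 0.168), the largest in size, and the F test gave an adjusted p of 0.3002. The day 6 change passed in 1 of 29 alternatives. In the same arrays 4 of 6 smooth muscle markers were lower and 0 higher at day 8. The called share was 66.7%, against 43.4% of all genes (22.8% lower and 20.6% higher). Among the lower were Acta2 (-1.16) and Myh11 (-2.16). Myh11 was detected on only 1 day 8 array, so its value is not a measured fold. Notch3 (0.51) and Cspg4 (0.10) did not pass. Summed levels were 2409 to 3169 at day 8 against 6050 to 6798 at day 0, with most weight on Acta2 (mean 12.51 at day 0 and 11.35 at day 8). The genes most like Gjc1 were Txndc12 (Pearson 0.848), Hps3 (0.844) and Tpd52l2 (0.799).

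Kitl, which encodes Kit ligand and lies on chromosome 10, had its highest mean at day 8. Its level was 7.78, 7.79, 8.01, 8.08 and 7.91 on the day 0 arrays, 8.57, 7.63 and 7.25 at day 2, and 7.50, 7.47 and 6.98 at day 4. It was 7.47, 7.08 and 7.77 at day 5 and 8.82, 7.34 and 6.93 at day 6, and the day 8 arrays had 8.32, 8.63 and 9.12. All 3 day 8 arrays lay above all 5 day 0 arrays, and all 6 arrays of days 4 and 5 lay below all 5. Repeat 1 was far above the other arrays at days 2 and 6, which gave those days an SD of 0.68 and 0.99, against 0.13 at day 0.

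The F test over the 6 days passed for Kitl (adjusted p = 0.0483), while no single comparison with day 0 did. With any one of 15 of the 20 arrays left out, that F test called 1 of the 4 genes. Day 8 was 0.77 above day 0 (SE 0.34, 95% interval 0.07 to 1.48, adjusted p = 0.0700), and this difference passed in 4 of 29 alternatives, namely without day 6 repeat 1 (0.78, adjusted p = 0.0139), without day 2 repeat 1 (adjusted p = 0.0478), without day 6 repeat 3 (adjusted p = 0.0472) and with array weights (1.00, adjusted p = 4.74e-04). Its size depended on the scaling, with 0.40 in the authors' log2 values. The change was -0.10 at day 2 (adjusted p = 0.876), -0.60 at day 4 (adjusted p = 0.187), -0.48 at day 5 (adjusted p = 0.295) and -0.22 at day 6 (adjusted p = 0.638). Without day 6 repeat 1 the day 6 change was -0.78 (adjusted p = 0.0341), and with array weights it was -0.71 (adjusted p = 0.00912) and the day 5 change -0.58 (adjusted p = 0.0413). Day 8 was 0.99 above day 6 (adjusted p = 0.319), and 1.56 above it without that array (adjusted p = 0.0187). Day 8 was 0.88 above day 2 (adjusted p = 0.106), and 1.26 above it without day 2 repeat 1 (adjusted p = 0.0254). Without day 6 repeat 1 that comparison also passed (adjusted p = 0.0232).

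The second Kitl probe was not above background on any of the 25 arrays (its lowest detection value was 0.134), so Kitl rests on 1 probe. Which transcript forms of Kitl either probe reads was not analysed here. The genes most like Kitl over the 20 arrays were Znrf2 (Pearson 0.868), Degs1 (0.839) and Mme (0.831). Their day 8 changes from day 0 were 0.14, 0.07 and 0.72 in the same order, against 0.77 for Kitl. How far these correlations turn on day 6 repeat 1 was not tested.

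**Figure D3:**
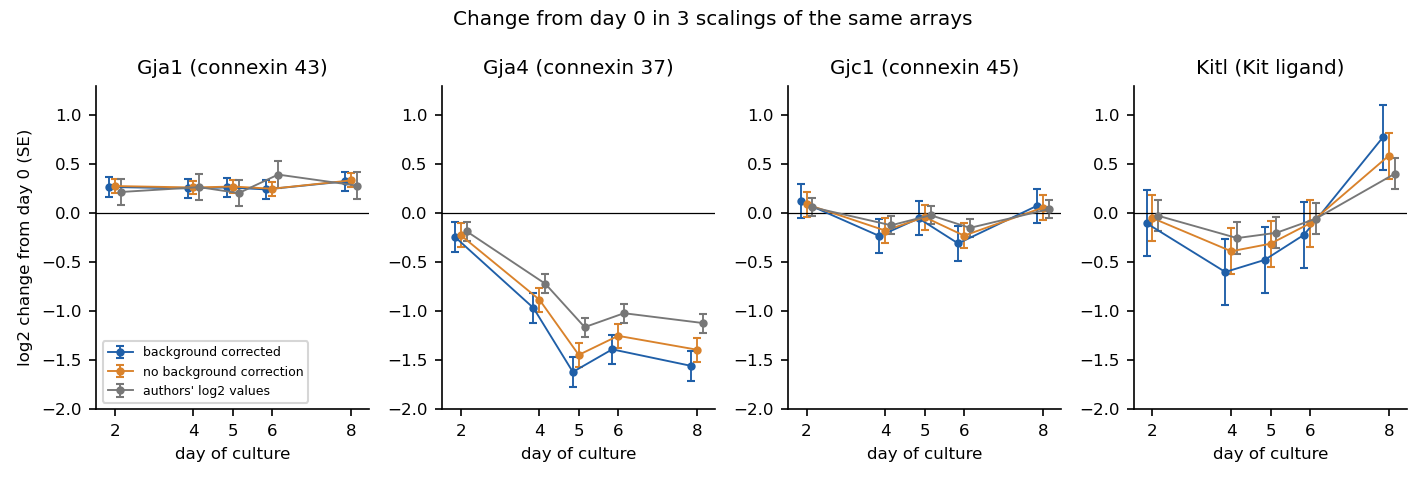
Log2 change from day 0 (vertical axis, bars are SE) of Gja1, Gja4, Gjc1 and Kitl at days 2, 4, 5, 6 and 8 of culture, in 3 scalings of the same arrays. The fall of Gja4 at day 8 is -1.56 with background correction and -1.12 in the authors' log2 values, and the day 8 change of Kitl is 0.77 and 0.40.

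Of the 4 genes, 2 were called at day 8 against day 0, where 43.4% of all genes were called, and 0 at day 2, where 25.1% were called. Counts were 1 at day 4 (33.7% of all genes), 2 at day 5 (35.9%) and 1 at day 6 (42.9%). Between cultured days 1 gene was called at day 4 against day 2 (8.39% of all genes) and 1 at day 8 against day 2 (22.4%). The count was 0 of 4 for day 5 against day 4 (0.954%), day 6 against day 5 (1.34%) and day 8 against day 6 (0.767%). At an unadjusted limma p under 0.05 the counts of 0 became 1 at day 2 against day 0 (Gja1, with 35.2% of all genes), 1 at day 5 against day 4 (Gja4, with 10.9%), 0 at day 6 against day 5 (14.8%) and 1 at day 8 against day 6 (Kitl, with 10.9%). All comparisons with day 0 share the day 0 arrays.

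The other connexins and pannexins of the array moved in both directions. Of 20 listed, 12 did not pass the detection filter and 7 were tested. At day 8 against day 0, 2 were higher and 2 lower, with a median change of 0.07. That is 4 of 7 called, against 43.4% of all genes in this comparison (20.6% higher and 22.8% lower). Gja5, a connexin known from blood vessels and heart, was not above background at day 0 and was at least 3.12-fold higher at day 8 (adjusted p = 1.29e-05) and at least 2.69-fold higher at day 2. Panx1, a channel that releases ATP, was 0.41 higher (adjusted p = 0.0145). Gjb2 was lower (-0.57, adjusted p = 0.0218), while Gjb1 (0.22) and Gja6 (-0.20) did not pass.

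Among partners of gap junctions, such as scaffolds, adhesion proteins and kinases, 1 of 13 tested was higher and 3 were lower at day 8, with a median change of -0.12. The called share was 30.8%, below the 43.4% of all genes. The lower ones included Cdh1, the E-cadherin of cell contacts (-1.64, SE 0.18), and Cav1 of caveolae (-1.09, SE 0.20). Vcl, which links junctions to actin, was 0.51 higher (SE 0.13). The catenins Ctnnb1 (0.26, adjusted p = 0.0871) and Ctnna1 (-0.09, adjusted p = 0.602) did not pass.

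Cyclic nucleotides pass through these channels. Of 12 genes of their synthesis and use that were tested, 5 were higher and 2 lower at day 8, with a median change of 0.18. The called share was 58.3%, against 43.4% of all genes. Npr2, the granulosa cell receptor that makes cyclic GMP, was 11.24 ± 0.07 at day 8 (SD, n = 3) against 9.26 ± 0.14 at day 0 (SD, n = 5), a 3.94-fold difference (adjusted p = 3.71e-09). Nppc, which encodes the precursor of its ligand CNP, was not above background at day 0 and at least 2.02-fold higher at day 8. Prkar2b, a regulatory subunit of protein kinase A, was 2.26 higher, Impdh1 of guanine nucleotide synthesis 0.86 higher and Adcy9, an adenylate cyclase, 0.84 higher. Impdh2, which catalyses the same step as Impdh1, was lower (-0.81). Gpr3, the oocyte receptor that keeps cyclic AMP high, was also lower (-0.69) and is named after its value was seen. It was detected on 2 of the 3 day 8 arrays, near background. Prkaca (0.24) and Prkar1a (0.12) did not pass.

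Of 22 genes of Kit signalling tested, 6 were higher and 3 lower at day 8, with a median change of 0.24. The called share of 40.9% was near the 43.4% of all genes, so the list as a whole did not stand apart by its count. Foxo1, a transcription factor held back by AKT, was 1.21 higher (SE 0.14). Stat5a was 0.71 higher, and the adaptor Gab2 was not above background at day 0 and at least 1.58-fold higher. Socs6, which binds activated Kit, was lower (-0.55), and Tsc1, a brake on mTOR, was not above background at day 8 and at least 1.12-fold lower. Ptpn11 (-0.24, adjusted p = 0.0766) and Pik3r1 (-0.35, adjusted p = 0.199) did not pass. Most of these genes act in many cell types, so their levels in whole follicles are not those of the oocyte.

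**Figure D4:**
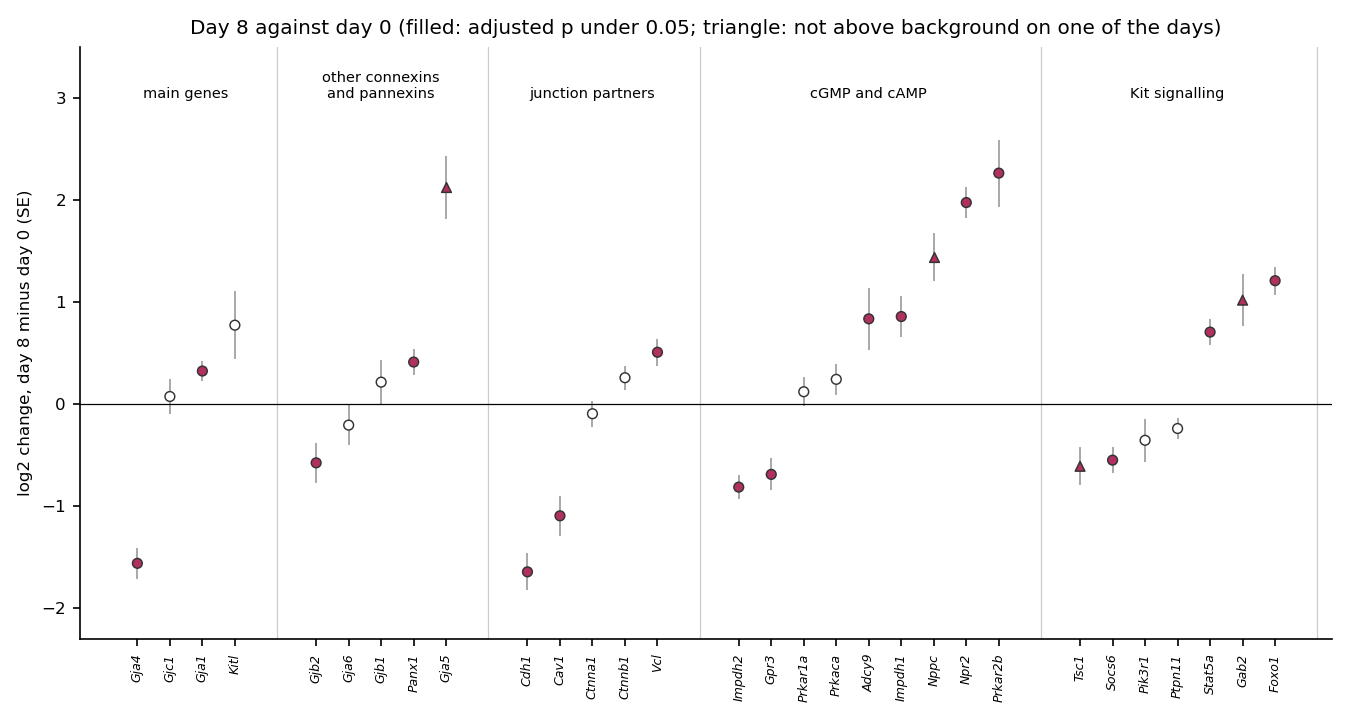
Fitted log2 change, day 8 minus day 0 (vertical axis, bars are SE), of the 4 main genes and of the genes named above from 4 lists, ordered by size within each list. Filled points passed the test and triangles were not above background on one of the days, so that their fitted values are not measured folds. Prkar2b at 2.26 and Npr2 at 1.98 lie highest among the circles, and Cdh1 at -1.64 and Gja4 at -1.56 lie lowest.

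Set against the arrays labelled brain reference, fresh follicles had higher levels of Gja1, Gja4 and Kitl. In a fit over all 25 arrays 3 of the 4 genes were called, where 75.5% of all genes were called and 41.3% were higher at day 0. Gja1 was 14.88 ± 0.08 at day 0 and 13.75 ± 0.16 on these arrays (SD, n = 5 each), a difference of 1.13 (SE 0.09, adjusted p = 2.48e-11). Gja4 was 10.52 ± 0.12 at day 0 and 9.14 ± 0.08 on these arrays, a difference of 1.38 (SE 0.12, adjusted p = 2.19e-10). Kitl was 7.78 ± 0.13 at day 0 and 6.17 ± 0.44 on these arrays, where it was detected on 4 of 5, a difference of 1.61 (SE 0.29, adjusted p = 1.98e-05), or 0.59 in the authors' log2 values. Gjc1 was 8.25 ± 0.26 at day 0 and 8.40 ± 0.14 on these arrays, a difference of -0.16 (adjusted p = 0.325). Which tissue these arrays hold was not tested beyond the markers above.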

How the data were processed

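Per the file headers, the signal table deposited by the authors held for 25697 probes and 25 arrays a mean bead signal as an intensity without normalization, its standard error, a detection p-value and a count of beads (another unit). A further table deposited by the authors held 23286 of these probes as log2 values with array medians of 7.84 to 7.89; how they were made is not given in the sources used here. Array medians of the intensity were 92.4 to 168, and the 5 probes of the 4 genes rested on 25 to 59 beads. For arrays, precision is limited by their number.

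On the follicle signals, neqc from limma 3.58.1 (R 4.3.3) corrected the background, with an offset of 16, applied quantile normalization and gave log2 values. The detection filter kept 14490 probes whose detection p lay below 0.05 on 3 or more of the 20 arrays, and the brightest was used for each symbol (10688 genes). Of the symbols, 2906 were updated through RefSeq synonyms. One mean per day was fitted with lmFit and eBayes, and p values were adjusted by Benjamini-Hochberg over all genes, at a threshold of 0.05. A fold against a day below background is a lower bound, set against the lowest level detected per array. The arrays labelled brain reference entered a separate fit over all 25 arrays with 11258 genes. The fit was tested on simulated data.

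The 5 genes, the lists of connexins, junction partners, cyclic nucleotide genes, Kit signalling and cell markers (oocyte, granulosa, theca, mast cell, endothelium, smooth muscle) and the tests were chosen with earlier results of these data known. Named from the lists of pathways were up to 6 genes past the threshold with the largest change at day 8 and up to 2 others with the highest mean, from marker lists the extremes, and for each gene the 3 most alike. Some genes of the lists enter the counts and medians but are not reported here by name. The brain and heart markers were chosen after the data were seen. A comparison of Kit with oocyte markers could not be run. Of 10 mast cell markers 7 did not pass the filter, and of the other 3, Hdc was higher and Gata2 lower at day 8. Alternatives were the authors' log2 values, no background correction, all 25 arrays in the normalization, no filter, a stricter filter, every probe tested, array weights, day 0 as 1 sample, the repeat number as a block, and each array left out.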

Additional observations from a re-analysis of the deposited data

How the results depend on the processing

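No change in sign was found for a called value of the 4 genes in any alternative. Day 0 counted as 1 sample gave 2662 genes in the F test, 498, 1175, 1398, 1938 and 2113 at days 2, 4, 5, 6 and 8 against day 0, and 558, 47, 38 and 23 for the steps to days 4, 5, 6 and 8, by construction with fewer samples, and called 1 of the 4 genes in the F test, at day 5 and at day 8. Array weights gave 4802 genes at day 2 against day 0, 2321 for day 4 against day 2, 200, 246 and 254 for the steps to days 5, 6 and 8, and 3885 for day 8 against day 2, and called 1 of the 4 genes at day 2 (44.9% of all genes), 2 at day 4 (45.2%) and 2 at day 6 (52.2%), 1 for the step to day 8 and 2 for day 8 against day 2. The authors' log2 values called 128 genes for the step to day 8, and 1 of the 4 genes in the F test (49.0% of all genes), 1 at day 5 (36.0%), 2 at day 6 (43.2%) and 1 at day 8 (43.7%). Without background correction, without the filter and with a stricter filter, 1 gene of the 4 was called at day 2 (of all genes 25.8%, 14.7% and 28.9% in the same order of settings), 2 at day 4 (33.9%, 20.3% and 37.9%) and 2 at day 6 (43.3%, 25.3% and 47.9%). With every probe tested, 1 was called in the F test (45.6% of all probes) and 1 at day 5 (32.5%). The difference of Gja4 from oocyte markers was 0.24 without background correction and 0.21 without the filter, where its exact permutation p missed the threshold. For each of these the cause was not tested. In the setting without the filter, the mean of the oocyte markers also took in the 2 markers that the filter had left out.

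Leaving out each array in turn, 509 to 1184 genes were called for the step to day 4, 51 to 147 for that to day 5, 49 to 218 for that to day 6 and 33 to 95 for that to day 8. Of the 4 genes, 1 to 3 were called in the F test (4837 to 5825 of 10688 genes) and 0 to 1 at day 2 (2011 to 3231). At days 4, 5 and 6, 1 to 2 were called (2832 to 4081, 3281 to 4332 and 4164 to 4664 genes). At day 8, 2 to 3 were called (4057 to 5097 genes). The steps to days 4, 5 and 8 called 0 to 1 of the 4. Day 8 against day 2 called 1 to 2, where 22.4% of all genes were called in the main fit. The difference of Gja4 from oocyte markers ranged from 0.23 to 0.47.

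No pairing by repeat number was seen: deviations of same-numbered arrays correlated between -0.41 and 0.44 over 30 pairs. Those of differently numbered arrays correlated between -0.584 and 0.555. With so few arrays per day, these values cannot tell whether same-numbered arrays shared an experiment. With the repeat number as a block, 81 genes were called for the step to day 6 and 46 for that to day 8, and of the 4 genes 1 was called in the F test (43.1% of all genes), 1 at day 5 (30.6%), 2 at day 6 (39.4%) and 1 at day 8 (38.4%). In that fit Gja1 was 0.25 above day 0 at day 5 (adjusted p = 0.141) and 0.31 above it at day 8 (adjusted p = 0.0574), and Gjc1 at day 6 was 0.49 below it (-0.49, adjusted p = 0.0342).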
